A study of Mus musculus with 6 samples.

Results

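The serpins are a family of protease inhibitors, and the liver makes most of those that circulate in blood. Members were taken by symbol: every non-control probe whose accession belongs, in a RefSeq table of assembly GRCm38.p6, to a mouse gene named Serpin with a clade letter from a to i and a number. That table holds 69 such symbols, of which 60 were on the array, with 75 probes, among 20284 array genes with a symbol. Signal well above background was found for 35 of the 60, and these are the members that could be tested, among 20653 tested features.

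Serpins share 1 fold. An exposed loop offers itself to a protease as bait, the protease cuts it, and the serpin snaps into a new shape that carries the trapped enzyme with it, so each molecule works once. In the liver the best known are alpha-1-antitrypsin, antichymotrypsin, antithrombin and the C1 inhibitor. A few members have lost inhibition and carry hormones or fold collagen instead, and clade B members stay inside cells, where they guard against the cell's own proteases.

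The mice were male, lacked apolipoprotein E on the C57BL/6J background and ate a purified Western diet for 11 weeks, in both groups, made up with palm oil (20%) and cholesterol (0.15%). The control group of 9 mice received that diet alone. The treated group of 10 mice received it with 1% squalene, a dose also stated as 1 g/kg. RNA of 2 or 3 livers was combined in each of 4 pools per diet, and on each of 6 two-colour arrays a squalene pool was hybridised together with a Western pool. There were thus 4 pool pairs (n = 4), with squalene in Cy5 in pairs 1 and 4 and in Cy3 in pairs 2 and 3. The pool is the replicate, and the spread between single animals is not seen. The loss of apolipoprotein E is itself shared by all pools, so every value describes squalene within that setting.

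All 6 arrays had 62976 spots, and 48.7% to 54.2% of spots in a channel were well above background. No spot was saturated. Pairs 1 and 2 were hybridised again on another slide, with correlations across features of 0.847 and 0.879 (Pearson's r; features are not replicates), and their technical SD for serpin genes was 0.07 in both, on the log2 ratio scale. Hepatocyte markers were well above background, with all 14 of 14 tested, and the probe for Apoe was above background in every pool, so it does not check the genotype; where the gene was disrupted is not stated in the labels. Its ratio was -0.19 ± 0.10 (SD, n = 4). In RNA from whole liver, fewer cells of a type and less RNA per cell cannot be told apart.

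The promoters of the alpha-1-antitrypsin paralogs are shown because the data on these genes have to be read with their near-identity in mind, and that of Serpina7, the member with the largest absolute ratio, is shown for contrast. Each stretch is 96 bases upstream of the RefSeq start on the minus strand of GRCm38.p6, 5′ to 3′, with capitals marking GTTAAT, the half-site of the hepatocyte factor HNF1.
Serpina1a, chr12:103863625-103863720: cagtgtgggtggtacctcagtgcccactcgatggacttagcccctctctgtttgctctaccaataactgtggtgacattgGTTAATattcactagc
Serpina1c, chr12:103904962-103905057: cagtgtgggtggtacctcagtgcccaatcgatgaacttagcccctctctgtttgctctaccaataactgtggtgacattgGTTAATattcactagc
Serpina1d, chr12:103773634-103773729: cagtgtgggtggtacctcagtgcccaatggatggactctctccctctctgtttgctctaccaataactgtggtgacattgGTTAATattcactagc
Serpina1e, chr12:103956960-103957055: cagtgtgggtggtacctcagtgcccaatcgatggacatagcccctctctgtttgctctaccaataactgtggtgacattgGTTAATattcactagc
Serpina7, chrX:139085278-139085373: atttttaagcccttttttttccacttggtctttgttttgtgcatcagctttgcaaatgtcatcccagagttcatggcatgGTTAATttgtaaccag

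The 4 alpha-1-antitrypsin stretches were 93.8% to 97.9% identical to one another and 28.1% to 29.2% identical to that of Serpina7. The capitals begin 21, 27, 16 and 78 bases before the RefSeq start of Serpina1a, Serpina1c, Serpina1d and Serpina1e, and 57 bases before that of Serpina7. Promoter windows of 300 bases were given for 25 of the 35 tested members, and GTTAAT, searched on both strands, lies in those of 7 of them (28%), against 8.24% of 27025 genes. The other matches were in Serpina3c and Serpinb8. Of the 7, 4 are the near-identical alpha-1-antitrypsin promoters, which do not count as separate matches. TTCNNNGAA, the core of sites bound by STAT factors, lies in the windows of 4 members (16%), Serpina11, Serpina3f, Serpina3i and Serpinb6a, against 9.55% of all genes. A match describes the letters only. Promoters of Serpina3h, Serpina3k, Serpina3m, Serpinb1a, Serpina10, Serping1, Serpina6, Serpina4-ps1 and Serpina9 had no entry.

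Across the 35 tested serpins, squalene pools and Western pools differed little on average and unevenly between pairs. The mean log2 ratio of squalene over Western was above 0 for 20 genes and below 0 for 15, with a median of 0.03 beside 0.0028 over all features, and it ran from -0.52 for Serpina7 to 0.42 for Serpinb1a. No serpin passed an adjusted p of 0.05 (limma, Benjamini-Hochberg over all features; smallest adjusted p 0.9999), and neither did any other feature (0% of 20653, smallest adjusted p 0.158). At an unadjusted p under 0.05 in limma there were 2 serpins (5.71%), Serpinb1a above 0 and Serpina7 below, where the share over all features was 2.46% (509 features). A ratio of 1 sign in all 4 pairs was seen in 5 serpins (14.3%), where the share over all features was 6.38%. Those 5 were Serpinb1a and Serpinb3c above 0, and Serpina11, Serpina12 and Serpinb6d below. Serpina11 alone had squalene and Western levels that did not overlap, where the share over all features was 0.77%. Each of these shares rests on 1 to 5 genes.

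**Figure D1:**
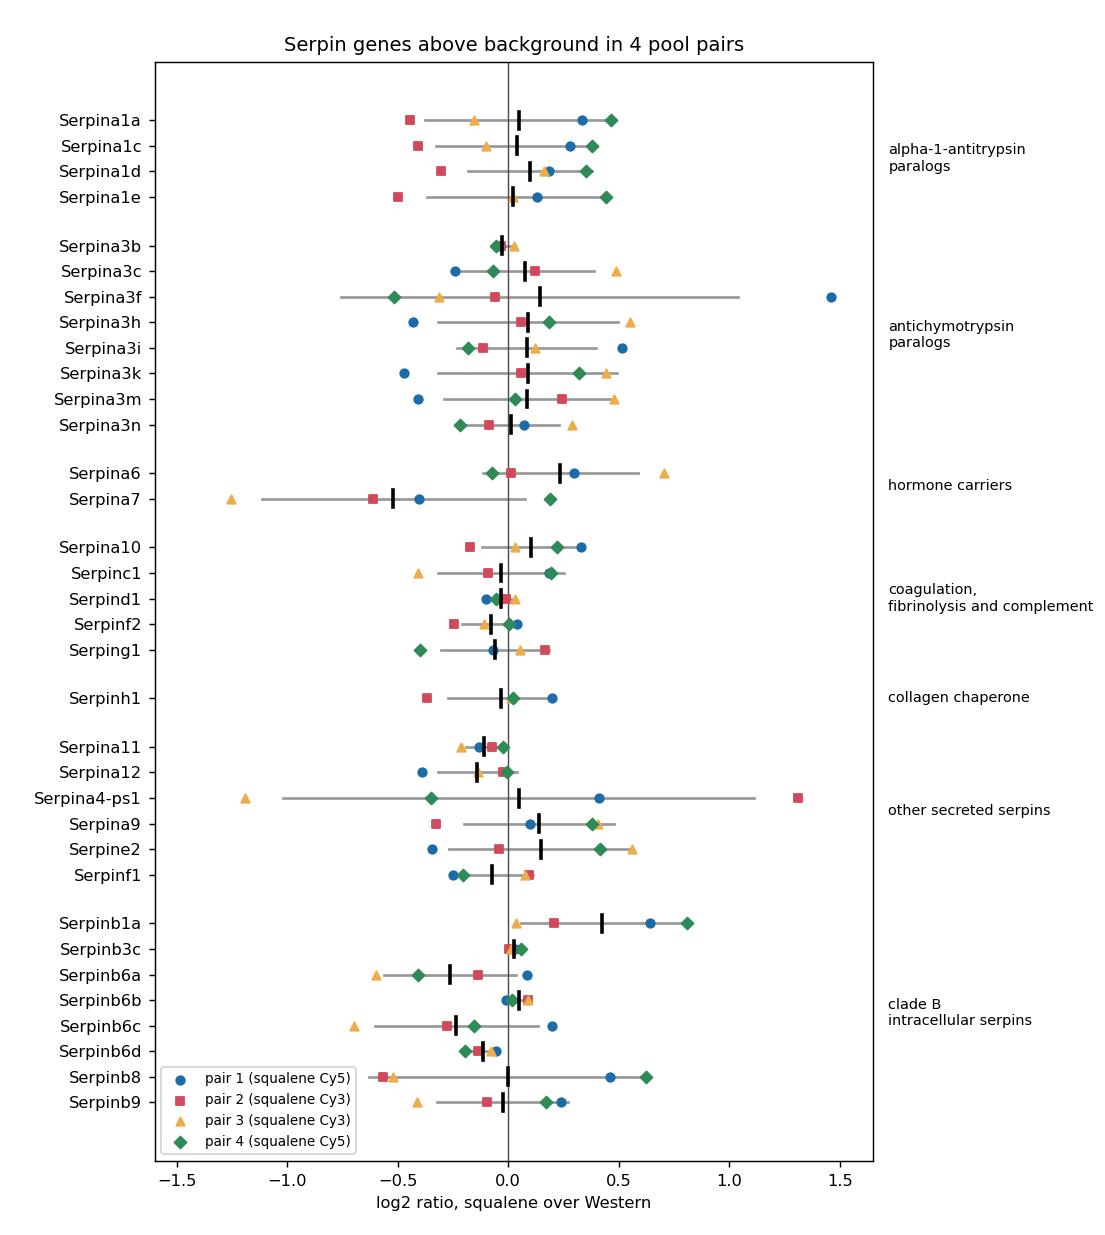
The log2 ratio of squalene over Western (x axis) is plotted for 34 of the 35 tested serpin genes (y axis, grouped by role) in 4 pool pairs; coloured points are pairs, black ticks are means and grey bars span 1 SD on either side. Serpinb1a lies above 0 in all 4 pairs (0.03 to 0.81), Serpina7 lies below 0 in pairs 1 to 3, and Serpina3f and Serpina4-ps1 spread widely, with SDs of 0.90 and 1.07.

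The spread between pairs was larger than the mean difference in most of the family, as in most features. The median SD of a serpin gene was 0.31, against 0.16 over all features, and the SD exceeded the absolute mean in 31 of 35 serpins, or 88.6%, where the share over all features was 92.9%. A wide spread was not particular to serpins, since the SDs of the 14 hepatocyte markers ran from 0.14 for F2 to 0.92 for Tat, with Alb at 0.50. The median absolute mean of the serpins was 0.08, against 0.04 over all features. Family medians in pairs 1 to 4 were 0.09, -0.09, 0.02 and 0.02, so no pair shifted the whole family far. Repeat arrays of the same pools differed for a serpin gene by at most 0.24 in pair 1 and 0.25 in pair 2, on the log2 ratio scale. An opposite sign in the pairs of each dye orientation, with 1 sign inside each, was seen in 10 serpins (28.6%), and the share over all features was 27.8%. Dye orientation and the pools that carry it cannot be told apart in this design. The dye intercept of the fit takes up that difference, so an SE given here leaves it out.

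**Figure D2:**
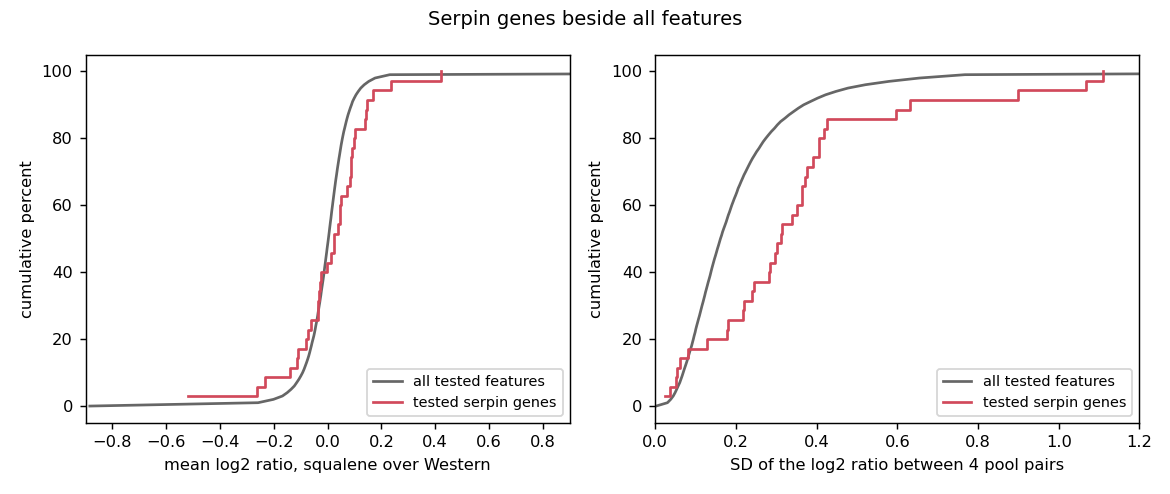
Cumulative percent (y axis) of the mean log2 ratio of squalene over Western (left) and of its SD between 4 pool pairs (right) is drawn for the 35 tested serpins (red) and all 20653 tested features (grey). The means of both sets centre near 0, at medians of 0.03 and 0.0028, and the SDs of the serpins lie to the right, with medians of 0.31 and 0.16.

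Alpha-1-antitrypsin, the main plasma inhibitor of neutrophil elastase, is encoded in the mouse by several near-copies, and 4 of the 5 on the array were tested. All 4 had means close to 0, from 0.02 to 0.10, with a median of 0.04, and none had 1 sign in all pairs. Serpina1a was at 0.33, -0.44, -0.16 and 0.47 in pairs 1 to 4, a mean of 0.05 ± 0.42 (SD, n = 4; SE 0.07). Serpina1c was at 0.28, -0.41, -0.10 and 0.38, a mean of 0.04 ± 0.36 (SD, n = 4; SE 0.07). Both were above 0 with squalene in Cy5 and below 0 with squalene in Cy3.

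Serpina1d, at 0.18, -0.30, 0.16 and 0.35, had a mean of 0.10 ± 0.28 (SD, n = 4; SE 0.09). Serpina1e, at 0.13, -0.50, 0.02 and 0.44, had a mean of 0.02 ± 0.39 (SD, n = 4; SE 0.11). In every one of the 4 paralogs pair 2 was the lowest and pair 4 the highest, and squalene and Western levels overlapped. Second probes of Serpina1a, Serpina1d and Serpina1e read means of 0.10, 0.10 and 0.08. These transcripts are so alike that a probe may read more than 1 of them, so the paralogs do not count as independent measurements. Without pair 3 the fitted ratios of all 4 were below 0, with a median of -0.03. In that fit each dye orientation counts equally, so pair 2 weighs as much as pairs 1 and 4 together. A fitted ratio with 1 pair left out is thus not a plain average of the remaining pairs. The hepatocyte markers, 12 of 14 with a mean above 0, averaged 0.17, -0.12, 0.0011 and 0.22 in pairs 1 to 4, and their part in the alpha-1-antitrypsin values was not tested.

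The antichymotrypsin paralogs descend from 1 ancestral gene that humans keep as a single copy, and they inhibit chymotrypsin-like proteases or, in some copies, have unknown targets. Of the 10 on the array 8 were tested, 7 with a mean above 0 and 1 below, with a median of 0.09 and none of 1 sign in all pairs. Without pair 3 only 3 of the 8 had a fitted ratio above 0, with a median of -0.01, again with the larger weight on pair 2. Serpina3k, an abundant plasma serpin also called kallikrein-binding protein, was at -0.47, 0.06, 0.44 and 0.32 in pairs 1 to 4 (mean 0.09 ± 0.41, SD, n = 4). Serpina3m was at -0.41, 0.24, 0.48 and 0.03 (mean 0.09 ± 0.38, SD, n = 4). Serpina3h, listed in RefSeq as non-coding, was at -0.43, 0.06, 0.55 and 0.18 (mean 0.09 ± 0.41, SD, n = 4). These 3, with Serpina3c at -0.24, 0.12, 0.49 and -0.07 (mean 0.07 ± 0.31, SD, n = 4), were lowest in pair 1 and highest in pair 3.

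Serpina3f and Serpina3i were highest in pair 1. Serpina3f was at 1.46, -0.06, -0.31 and -0.52 (mean 0.14 ± 0.90, SD, n = 4), and both arrays of pair 1 read 1.46. Its squalene levels were 9.47, 7.63, 7.52 and 7.48 in pools 5 to 8 (log2 intensity), and its Western levels were 8.01, 7.69, 7.83 and 8.00 in pools 1 to 4. Pool 5 alone stood above the rest, and the remaining squalene pools were below every Western pool. A second Serpina3f probe read 0.70, -0.23, -0.33 and -0.49, a mean of -0.09, so the probes differed in the sign of the mean and not in the sign of any pair. With 1 pair omitted the fitted ratio of Serpina3f, with equal weight for each dye orientation, ran from -0.35 without pair 1 to 0.64 without pair 4. Its direction thus rests on single pairs.

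Serpina3i, at 0.51, -0.11, 0.12 and -0.18 (mean 0.08 ± 0.31, SD, n = 4), was likewise highest in pair 1, and its second probe read a mean of -0.09. Serpina3n, the copy best known as an acute phase gene, was at 0.07, -0.09, 0.29 and -0.22 (mean 0.01 ± 0.22, SD, n = 4). Serpina3b was at -0.04, -0.03, 0.03 and -0.06 (mean -0.03 ± 0.04, SD, n = 4), with levels only between 6.87 and 7.18 in all pools. Serpina3n and Serpina3b thus lay within a spread that included 0, and their squalene and Western levels overlapped.

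**Figure D3:**
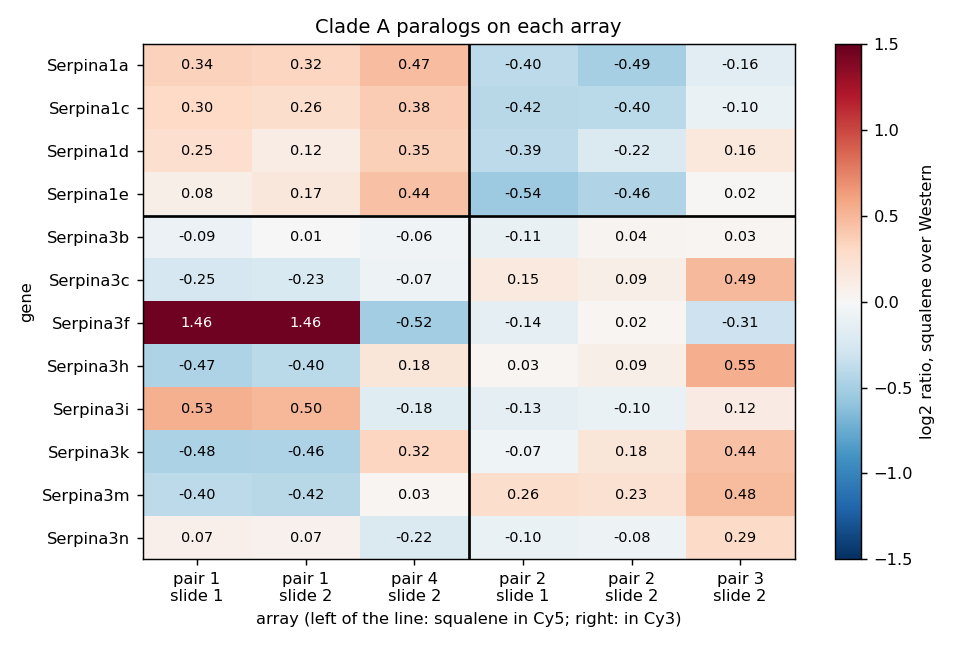
Each cell gives the log2 ratio of squalene over Western of 1 clade A paralog (rows) on 1 of the 6 arrays (columns), coloured from blue (lower with squalene) to red (higher with squalene); the vertical line separates the dye orientations and the horizontal line separates alpha-1-antitrypsin from antichymotrypsin paralogs. Repeat arrays of pairs 1 and 2 read alike, Serpina1a to Serpina1e are lowest in pair 2, and Serpina3c, Serpina3h, Serpina3k and Serpina3m are lowest in pair 1.

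Both hormone carriers on the array were tested, and neither kept 1 sign in all pairs. Serpina7 encodes thyroxine-binding globulin, a non-inhibitory serpin that carries thyroid hormone in plasma. Its squalene levels were 10.42, 9.99, 9.54 and 10.23 in pools 5 to 8, and its Western levels were 10.83, 10.60, 10.80 and 10.04 in pools 1 to 4 (log2 intensity). Pools 1, 2 and 3 were above every squalene pool, and Western pool 4 lay among the squalene pools, so the groups overlapped. The ratios were -0.40, -0.61, -1.25 and 0.19 in pairs 1 to 4. The mean was -0.52 ± 0.60 (SD, n = 4; SE 0.15), or 0.697 of the Western level, with a limma p of 0.0166 unadjusted and 0.9999 after Benjamini-Hochberg adjustment. Without pair 1 or pair 3 the unadjusted limma p was 0.0757 and 0.0579, and without the dye term it was 0.0502. Leaving out 1 pair at a time gave fitted ratios between -0.68 and -0.36.

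Serpina6 encodes corticosteroid-binding globulin, which carries glucocorticoids. Its squalene levels were 14.24, 14.33, 14.36 and 14.04, and its Western levels were 13.95, 14.32, 13.65 and 14.11 (log2 intensity). Western pools 1 and 3 lay below every squalene pool, and Western pools 2 and 4 lay among them, so the groups overlapped. The ratios were 0.30, 0.01, 0.71 and -0.08, a mean of 0.24 ± 0.35 (SD, n = 4; SE 0.13), with an unadjusted p of 0.140 in limma. A second probe read 0.58, -0.19, 0.55 and 0.27, a mean of 0.30. Leaving out 1 pair moved the fitted ratio of the first probe between 0.06 and 0.41.

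**Figure D4:**
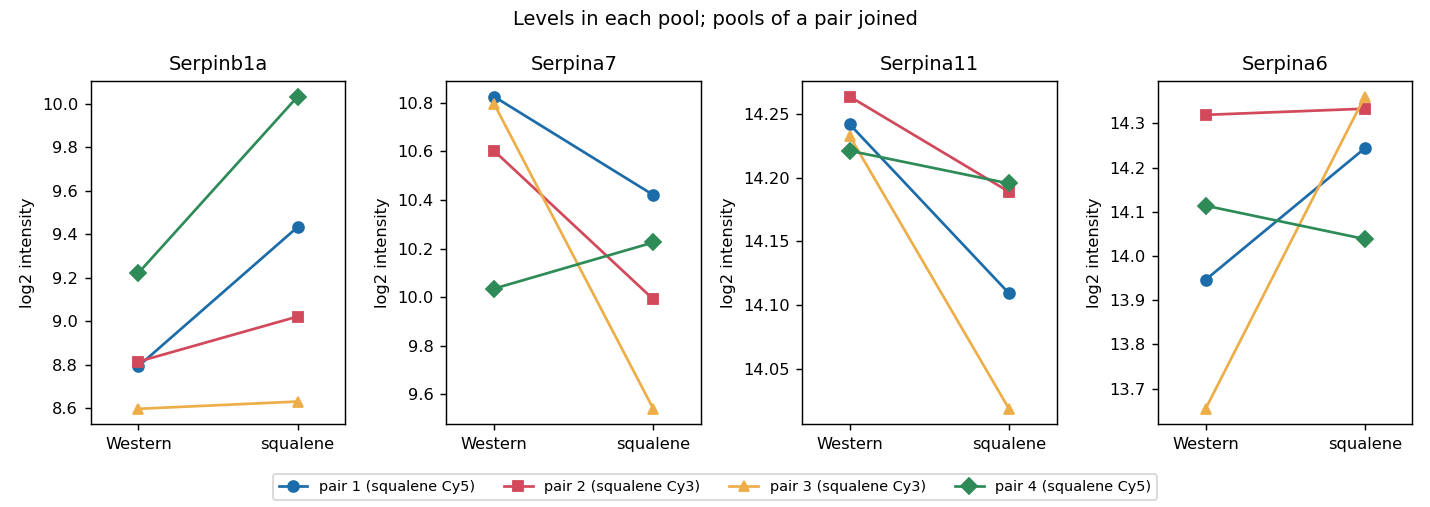
The log2 intensity (y axis) of 4 serpin genes is drawn in every pool, with a line joining the Western and squalene pool of each pair; the y axes have separate ranges and levels are not to be compared between genes. Serpinb1a lines climb in every pair, Serpina7 lines descend in pairs 1 to 3, the squalene and Western levels of Serpina11 do not overlap, and the Serpina6 lines run in both directions.

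Of the serpins of coagulation, fibrinolysis and complement, 6 of 7 on the array were tested, and 2 had a mean above 0 and 4 below, with a median of -0.03. Serpinc1, antithrombin, the inhibitor of thrombin and factor Xa, was at 0.18, -0.09, -0.41 and 0.19 (mean -0.03 ± 0.29, SD, n = 4). Serpind1, heparin cofactor II, was at -0.10, -0.01, 0.03 and -0.06 (mean -0.03 ± 0.05, SD, n = 4). Serpina10, the protein Z-dependent inhibitor of factor Xa, was at 0.33, -0.17, 0.03 and 0.22 (mean 0.10 ± 0.22, SD, n = 4), and its second probe read a mean of 0.12. In all of these the squalene and Western levels overlapped, and Serpind1 had one of the tightest spreads of the family.

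Serpinf2, alpha-2-antiplasmin, was at 0.04, -0.25, -0.11 and 0.0040 (mean -0.08 ± 0.13, SD, n = 4). Serping1, the C1 inhibitor of complement and the contact system, was at -0.07, 0.17, 0.05 and -0.40 (mean -0.06 ± 0.24, SD, n = 4), and its second probe read a mean of -0.0087. Neither gene's pairs stayed on one side of 0.

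Serpinh1, HSP47, is a collagen chaperone of the endoplasmic reticulum, a serpin without inhibitory action. It was at 0.20, -0.37, 0.01 and 0.02 (mean -0.03 ± 0.24, SD, n = 4). Its levels overlapped, and it was lowest in pair 2. Stellate cell and fibroblast markers, 12 of 14 with a mean below 0, averaged 0.15, -0.52, -0.45 and 0.03 in pairs 1 to 4, and their part in Serpinh1 was not tested.

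Among 6 tested serpins of the remaining secreted group, 3 had a mean above 0 and 3 below. Serpina11, a liver-made serpin of little known function, had squalene levels of 14.11, 14.19, 14.02 and 14.20 in pools 5 to 8 (log2 intensity). Its Western levels were 14.24, 14.26, 14.23 and 14.22 in pools 1 to 4, so every squalene pool lay below every Western pool. The ratios were -0.13, -0.07, -0.21 and -0.03, a mean of -0.11 ± 0.08 (SD, n = 4; SE 0.06), with an unadjusted p of 0.118 in limma. The size of the difference is thus small even where the levels did not overlap, and pair 4 sat close to 0.

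Serpina12, the adipokine vaspin, was at -0.39, -0.02, -0.14 and -0.0038 (mean -0.14 ± 0.18, SD, n = 4; unadjusted p of 0.151 in limma), with levels between 6.92 and 7.44. It was below 0 in all 4 pairs, 2 of them by less than 0.05, and the arrays of pair 2 disagreed in sign, at 0.10 and -0.15. Without pair 1 its fitted ratio was -0.04. Serpina4-ps1, a pseudogene with a bright probe, was at 0.41, 1.31, -1.19 and -0.35 (mean 0.05 ± 1.07, SD, n = 4). Leaving out 1 pair gave it fitted ratios from -0.58 to 0.67. Serpina9 and Serpine2 had means of 0.14 ± 0.34 and 0.15 ± 0.42, and Serpinf1, the angiogenesis inhibitor PEDF, had a mean of -0.07 ± 0.18 (SD, n = 4), while its second probe read a mean of 0.02. None of these genes but Serpina12 kept 1 sign in all pairs.

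Clade B serpins inhibit proteases inside cells and lack a classical secretion signal. Of 27 on the array 8 were tested, 3 with a mean above 0 and 5 below, and 19 were near background. Serpinb1a, an inhibitor of neutrophil elastase, cathepsin G and proteinase 3, had the smallest unadjusted p of the tested serpins. Its squalene levels were 9.43, 9.02, 8.63 and 10.03 in pools 5 to 8, and its Western levels were 8.79, 8.81, 8.60 and 9.22 in pools 1 to 4 (log2 intensity). The squalene pool was the higher one in all 4 pairs, while the groups as such overlapped, and the pools of pair 4 were the highest of each diet. The ratios were 0.64, 0.21, 0.03 and 0.81, a mean of 0.42 ± 0.36 (SD, n = 4; SE 0.06), or 1.34-fold. The limma p was 0.00124 unadjusted and 0.9999 after Benjamini-Hochberg adjustment. The repeat arrays read 0.56 and 0.72 in pair 1 and 0.28 and 0.14 in pair 2.

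The mean of Serpinb1a lay between 0.42 and 0.49 under 11 other settings, with an unadjusted limma p under 0.05 each time. Changing the dye term, probe filter, variance model or feature set could not change this mean. Averaging over probes could not either, since the gene has 1 probe. Without the dye term the unadjusted limma p was 0.0217. With 1 pair left out the fitted ratio of Serpinb1a lay between 0.38 and 0.47, and its sign could not change. The small SE beside the larger SD reflects the dye term, since the ratios with squalene in Cy5 were the higher ones. Of 11 neutrophil markers 5 were tested, 1 with a mean above 0 and 4 below, at averages of 0.12, -0.18, -0.56 and -0.14 in pairs 1 to 4. The defining genes Mpo, Ngp and Ly6g were not tested, and Elane, the target of Serpinb1a, was at -0.05 ± 0.07 (SD, n = 4). In pair 1 both Serpinb1a and the marker average were above 0. In pairs 2 and 4 Serpinb1a was at 0.21 and 0.81 and the marker average at -0.18 and -0.14. The markers were split in pair 4, with S100a8 and S100a9 at -0.36 and -0.58. Elane, Camp and Retnlg were at 0.04, 0.04 and 0.16 in that pair. The Serpinb1a ratio of 0.03 in pair 3 was under the technical SD of 0.07. The part of neutrophil markers in Serpinb1a was not tested.

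The Serpinb6 genes, relatives of an inhibitor of cathepsin G, included the next largest absolute means of clade B. Serpinb6a was at 0.09, -0.14, -0.60 and -0.41 (mean -0.26 ± 0.30, SD, n = 4; SE 0.12), with an unadjusted p of 0.0761 in limma. Serpinb6c was at 0.20, -0.28, -0.70 and -0.16 (mean -0.23 ± 0.37, SD, n = 4; SE 0.10), with an unadjusted p of 0.0675 in limma, and its second probe read a mean of -0.18. Both were above 0 in pair 1 and lowest in pair 3, and since the copies are alike in sequence their probes may share signal. The fitted ratios of Serpinb6a ran from -0.39 to -0.14 and those of Serpinb6c from -0.34 to -0.13 with 1 pair omitted. Macrophage and Kupffer cell markers, 11 of 12 tested with a mean below 0, averaged 0.17, 0.26, -0.59 and -0.52 in pairs 1 to 4, and their part in these genes was not tested.

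Serpinb6d was below 0 in all pairs, at -0.05, -0.14, -0.08 and -0.19 (mean -0.12 ± 0.06, SD, n = 4; unadjusted p of 0.0999 in limma). Its probe was well above background in the squalene channel of 3 pairs and the Western channel of 2. Its mean was -0.35 with the scanner's own processed signals and -0.29 with a normexp offset of 0, where the unadjusted limma p was 0.0209. Serpinb3c, related to the human squamous cell carcinoma antigens, was at 0.03, 0.0015, 0.01 and 0.06 (mean 0.03 ± 0.03, SD, n = 4), with levels between 6.28 and 6.36, and its arrays of pair 2 read 0.02 and -0.02. Serpinb6b, Serpinb8 and Serpinb9, an inhibitor of granzyme B, had means of 0.05 ± 0.05, -0.0016 ± 0.63 and -0.03 ± 0.30 (SD, n = 4). Serpinb8 was at 0.46 and 0.62 with squalene in Cy5 and at -0.57 and -0.52 with squalene in Cy3.

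**Figure D5:**
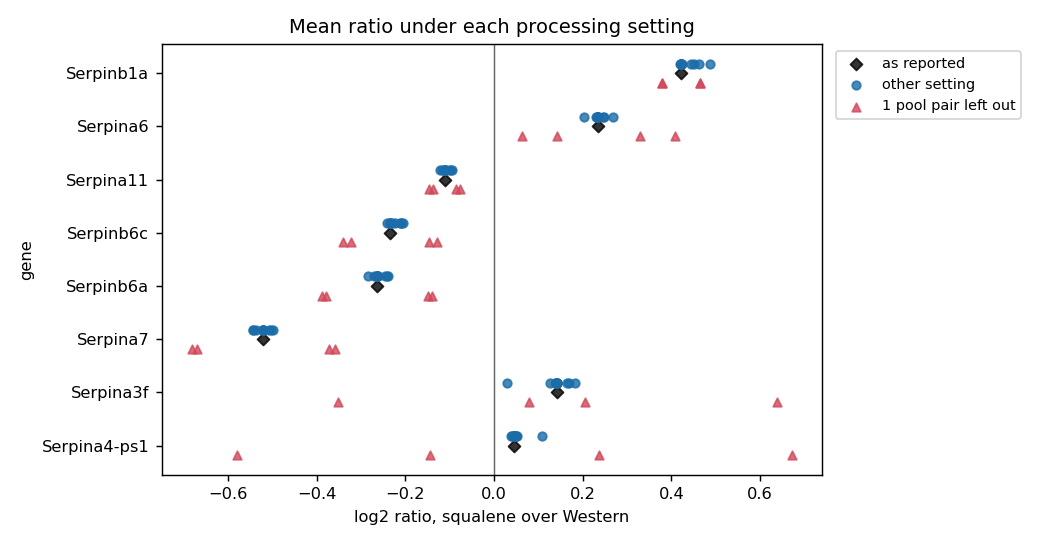
Mean log2 ratios of squalene over Western (x axis) are given for 8 serpin genes (y axis) as reported (black), under 11 other processing settings (blue) and with 1 pool pair left out (red). Red points are fitted ratios in which each dye orientation has equal weight, not plain means of the remaining pairs. Serpinb1a and Serpina6 stay above 0 and Serpina11, Serpinb6c, Serpinb6a and Serpina7 stay below 0 in all of them. Serpinb1a and Serpina11 had 1 sign in all 4 pairs, so leaving out 1 pair could not change theirs. Changing the dye term, probe filter, variance model or feature set left the means as they were. Serpina3f and Serpina4-ps1 cross 0 when 1 pair is left out.

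The 25 serpins on the array that were near background were 19 of clade B and 6 secreted ones. They were Serpina1f, Serpina3a, Serpina3j, Serpina5, Serpini1 and Serpini2, and in clade B Serpinb1b, Serpinb1c, Serpinb2, Serpinb3a, Serpinb3b, Serpinb3d, Serpinb5, Serpinb6e, Serpinb7, Serpinb9b to Serpinb9g and Serpinb10 to Serpinb13. In 21 of them no pair had a signal well above background in either channel, and Serpina1f reached that in 2 pairs. Serpina5, the protein C inhibitor, which in mice is made mainly in the reproductive tract and little in liver, was among those without any. A further 9 symbols had no matched probe, namely Serpina16, Serpina1b, Serpina3d-ps, Serpina3e-ps, Serpina3g, Serpina3l-ps, Serpinb1-ps1, Serpinb9h and Serpine3, and they were not analysed here.

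By chromosome, 18 of the 35 tested serpins lie on chromosome 12, which carries the alpha-1-antitrypsin and antichymotrypsin copies, and 15 of them had a mean above 0, with a median of 0.08. Their medians in pairs 1 to 4 were 0.11, -0.07, 0.08 and 0.01, so the sign was not that of every pair. Without pair 3 only 6 of the 18 had a fitted ratio above 0, with a median of -0.02. In that fit pair 2 weighs as much as pairs 1 and 4 together. Many of the 18 are near-copies whose probes may share signal. Chromosome 13 carries 6 of the tested clade B genes, with a median of -0.07, and 2 of them were above 0.

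Genes that act with serpins were counted as lists. Of 25 genes listed as serpin target proteases, 21 were tested, 10 with a mean above 0 and 11 below, with a median of -0.0066. The list includes Mpo, which is not a protease and was not tested. At an unadjusted p under 0.05 in limma there were 2 of the 21, where the share over all features was 2.46%. Gzma, granzyme A, had a mean of 0.29 from pairs at 0.77, 0.0070, -0.16 and 0.57. F9, coagulation factor IX, had a mean of 0.16 from pairs at -0.02, 0.37, 0.26 and 0.02. Neither protease was on one side of 0 in all pairs. Of 15 receptors, cofactors and clearance genes, 14 were tested, 7 above and 7 below 0, with a median of -0.0060. Plaur, the urokinase receptor, was at -0.25 and had an unadjusted limma p of 0.0152, the only 1 of the 14 under 0.05. Its ratios in pairs 1 to 4 were 0.18, -0.52, -0.56 and -0.10.

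Of 26 other protease inhibitors of plasma and tissue, 24 were tested, 5 with a mean above 0 and 19 below, with a median of -0.05. An unadjusted limma p under 0.05 was found for 2 of the 24, where the share over all features was again 2.46%. Timp1, an inhibitor of matrix proteases, had a mean of -0.45 ± 1.00 (SD, n = 4) from pairs at 0.63, -1.42, -1.16 and 0.14. Cstb, an inhibitor of cathepsins, had a mean of -0.14 ± 0.41 (SD, n = 4) from pairs at 0.27, -0.49, -0.50 and 0.15. Both were above 0 with squalene in Cy5 and below 0 with squalene in Cy3. A ratio of 1 sign in all 4 pairs was seen in 4 of the 24, where the share over all features was 6.38%. All 4 were below 0, among them Slpi, a secreted inhibitor of neutrophil elastase. Slpi had a mean of -0.26 from pairs at -0.12, -0.12, -0.75 and -0.04. Of 21 acute phase regulators, all tested, 6 were above and 15 below 0, with a median of -0.03, and 0 had an unadjusted limma p under 0.05. After Benjamini-Hochberg adjustment the limma p of every gene in these 4 lists was above 0.05 (0 genes called).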

How the data were processed

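Liver RNA pools of both diets were hybridised on two-colour arrays. The authors extracted the intensity of each spot and of its background for both dyes from scanned images with Agilent Feature Extraction, version 10.7.3.1 per the file headers (10.7 per the submitters' processing notes), with probes placed on mm9. Processed intensity values in the same deposited files were background-subtracted and dye-normalised by that software, per the file headers. The separate table of values deposited by the authors holds log10 ratios that equalled log10 of squalene over Western for unnormalised median signals within 0.001 in 99.93% to 99.94% of spots, with column medians of 0.254, -0.217, 0.27, -0.257, -0.27 and 0.259. Both pair 1 columns of these deposited values were handled as a score because 2 cells in each exceed 100, and these were left out.

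In R 4.3.3 with limma 3.58.1 and version 1.17.8 of data.table, median signals were corrected by normexp (offset 50) and normalised by loess, with outliers dropped and the 3671 control spots at weight 0. Averages were taken over a probe's spots, then over arrays of the same pools. Probes were kept if 1 or both diets' channels were well above background in at least 3 of 4 pairs (26847 of 55681), and the brightest stood for a gene. Features with a missing pair were dropped. The model (lmFit, then eBayes) had terms for diet and dye, with 2 residual and 3.04 prior degrees of freedom and Benjamini-Hochberg adjustment over all features; it was also tested on simulated data. Levels are log2 intensities after loess and Aquantile. Symbols (26762 probes) and promoters came from RefSeq (GRCm38.p6), by accession; the files' build is older, so coordinates are given for RefSeq promoters only.

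Values in every pair were given for tested members of the first 5 role groups, and for others with an unadjusted p under 0.05, 1 sign in all pairs or 1 of the 5 largest absolute means; pathway lists have up to 3 genes each. The levels of Serpina3f, and other members' summaries, were added after their values were seen. For 1 tested member the single-gene result is not reported; the counts and medians include it. Members and lists were chosen with earlier results of these data known. Alternatives covered background, normalisation, filter, dye term, slide, probes per gene, variance model, the authors' values and each pair left out. With a pair left out the fitted ratio still gives each dye orientation equal weight, so it is not a plain mean of the remaining pairs. No fold difference between probes was read.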

Additional observations from a re-analysis of the deposited data

How the results depend on the processing

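No serpin passed an adjusted p of 0.05 (limma, Benjamini-Hochberg) under any of 15 alternatives, and the smallest adjusted p of a serpin was 0.594, without replicate 2. Over all features, 2 were called with median centring in place of loess, 8 with the deposited value table and 3 with a slide term and the pool pair as a random block, against 0 as reported and 0 when 1 pair was left out. The count of serpins at an unadjusted limma p under 0.05 was 1 without the dye term and lay between 2 and 8 with 1 pair omitted (4, 8, 2 and 5 without replicate 1, 2, 3 and 4), against 2 as reported. The share of all features at that threshold was 1.23% without the dye term and 2.69%, 6.32%, 4.22% and 1.76% without replicate 1, 2, 3 and 4, against 2.46% as reported. With a normexp offset of 0 the count was 3, Serpinb6d being added, and the share of all features was 2.92%. The count with 1 sign in all pairs was 3 with the deposited table, 2 with median centring and 7 to 12 with 1 pair left out, where fewer pairs have to match, against 5 as reported. The share of all features with 1 sign is not given for these settings, so no reading of these counts is made. The serpin median of 0.03 lay between 0.0015 and 0.03 under other settings and between -0.02 and 0.06 with 1 pair left out. Of the 35 serpins, 14 kept the sign of their fitted ratio in all 15 alternatives. The 5 with 1 sign in all 4 pairs as reported are among them, and leaving out 1 pair could not change their sign. Of 525 values of single serpins, 5 moved by at least 1 SD, all of the dim genes Serpina3b, Serpinb3c and Serpinb6d. Many of the 525 could not move that far. Changing the dye term, probe filter, variance model or feature set left each serpin ratio as it was. Leaving out 1 pair always shifts a fitted ratio by less than 1 SD, so the low count is no measure of stability there. Serpinb3c and Serpinb6d moved with a normexp offset of 0 and with the scanner's processed signals, and Serpina3b with the latter alone, which differ in both background subtraction and dye normalisation. The 4 pool pairs limit precision. The pools of a pair share an array, and animals inside a pool cannot be told apart. Each ratio already sets the pools of a pair against each other on an array, and the groups of arrays by dye orientation share no replicate numbers that a further block could use.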
